A study of Mus musculus with 24 samples.

Results

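Epicardial and mesothelial lining genes were followed on 24 arrays of mouse right ventricle. The 9 members were Msln, Muc16, Upk3b, Upk1b, Wt1, Krt8, Krt18, Krt19 and Prg4, of which 7 were among the 12467 genes that could be tested and Upk3b and Upk1b were not. Each non-control probe whose design name was one of these symbols was taken, which gave 11 probes on 20 spots of each array. The members were chosen from known markers of the cell layer that covers the heart and with earlier results of these same arrays in view. Their levels are therefore given as a description, and no p-value of a member is given.

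The epicardium is the mesothelium of the heart, a single layer of flat epithelial cells that lines the outer surface of the ventricle and faces the pericardial fluid. Such cells carry mesothelin and mucins on their surface, hold simple-epithelium keratins inside and secrete lubricating glycoproteins. In the adult heart the layer is thin, and after injury some of its cells can return to the fetal programme marked by Wt1 and give rise to fibroblasts and mural cells.

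All mice were of the strain labelled M/FVB/10-12, and right ventricular RNA was hybridised with 1 colour (Cy3). PSPI, as the labels call it, was an operation that overloaded this ventricle in pressure and volume, and the shams had a sham operation. PSPI was sampled at month 1 (5 arrays), month 2 (5 arrays) and month 3 (4 arrays), and sham was represented by 10 arrays whose titles give no month. Whether the arrays of 1 group stand for different animals is not given in the sources used here, and the errors below measure the spread between arrays, which may be technical. The series' design text speaks of 4 to 5 control ventricles, fewer than the 10 sham arrays, and does not tie arrays to ventricles. Every comparison with sham used the same 10 shams.

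On these arrays 36.1% to 56.1% of probes were well above background. By slide, 1 month 1 array and 7 shams were on the first. The second carried 3 month 1, 4 month 2 and 1 month 3 arrays and no sham. The third carried 1 month 1, 1 month 2 and 3 month 3 arrays with 3 shams. Month 2 against sham was therefore mostly a comparison across slides, and the part of slide in it cannot be told apart. Of 276 pairs of arrays, 8 nearly coincided over the 500 most variable genes, all within a group and 6 of them across slides. These were month 1 samples 1 and 5, month 2 samples 1 and 5, month 3 samples 2 and 3, shams 1 and 5, shams 7 and 9, and shams 3, 4 and 10, which left 17 samples once they were averaged. Shams 3, 4 and 10 also stood apart by atrial cardiomyocyte markers, whose summed level was at least 150.4 on each of them against at most 31.9 on the other shams. It was 2.70 to 96.7 in month 1, 26.8 to 86.6 in month 2 and 31.2 to 54.3 in month 3, as multiples of the 75th percentile of the array.

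The probe sequences show what each level below was read from. The last 30 bases of each 60-base probe are printed, in the sense of the transcript, and capitals mark AATAAA, the usual polyadenylation signal, which was found in the printed bases of Msln, Muc16 and Krt8.
Msln: ggactcttgaactcAATAAAcagtggcata
Muc16: ggttcaaagAATAAATAAAccacattggtc
Upk3b: tggctattaatgacagtcggctacctagcc
Upk1b: gacgactctcattcctgtctatgtttaatg
Wt1: atcttacagtgtattgatgataatactaaa
Krt8: aaAATAAAgcctcagctggctctgtcaact
Krt18: caccagagttctgaggcactgaggcagaga
Krt19: cagatccagagcgtgatcagcggttttgaa
Prg4: agtcatcaaaatgaaatgaagaaaacagtg
On build mm9, from the array files, the Msln probe lies at chr17:25885569-25885628 (minus strand) and the Muc16 probe at chr9:18299899-18299958 (minus strand). The uroplakin probes lie at chr5:136520522-136520581 (plus strand) for Upk3b and chr16:38773859-38773918 (minus strand) for Upk1b. The Wt1 probe lies at chr2:105013656-105013715 (plus strand) and the Prg4 probe at chr1:152297067-152297126 (minus strand). The keratin probes lie at chr15:101827138-101827197 (minus strand) for Krt8, chr15:101862341-101862400 (plus strand) for Krt18 and chr11:100002392-100002451 (minus strand) for Krt19. Krt8 and Prg4 each had a second probe, at chr15:101828827-101828886 (minus strand) and chr1:152296620-152296679 (minus strand). Exon and UTR positions were not analysed here.

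The Krt8 and Krt18 promoters are shown because these keratins are obligate partners in the same filament and are neighbours in the genome. Their RefSeq starts on GRCm38.p6 lie 23.9 kb apart on chromosome 15 and point away from each other. The 250 bases before each start are printed, at chr15:102004343-102004592 (minus strand) for Krt8 and chr15:102027966-102028215 (plus strand) for Krt18. Capitals mark CACCTG, an E-box bound by Snail family repressors.
Krt8: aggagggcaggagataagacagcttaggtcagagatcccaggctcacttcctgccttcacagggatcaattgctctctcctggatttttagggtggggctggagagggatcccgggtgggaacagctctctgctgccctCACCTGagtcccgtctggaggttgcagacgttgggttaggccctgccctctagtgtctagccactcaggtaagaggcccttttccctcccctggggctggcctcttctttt
Krt18: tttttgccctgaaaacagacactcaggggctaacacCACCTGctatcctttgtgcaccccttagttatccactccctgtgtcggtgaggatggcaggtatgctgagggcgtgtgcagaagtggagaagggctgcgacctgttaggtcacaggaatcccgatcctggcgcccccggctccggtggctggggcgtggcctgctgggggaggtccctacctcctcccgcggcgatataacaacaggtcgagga
CACCTG occurred once in each on either strand, and 17.2% of 32851 mouse promoter windows of that length hold it. Promoter sequence was at hand for 4 of 9 members, the others being Muc16 and Upk3b. The motif GCGTGGG of the factor WT1 had no match on either strand of the 4 windows, where 4.30% of all windows hold it. The motif TGANTCA of AP-1 had none either, where 6.75% of all windows hold it. The motif GGAATG of TEAD factors, held by 12.6% of all windows, had 1 match in Upk3b and none in the other 3. No match of one motif overlapped a match of another. These are letter matches in a window and no more.

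Levels are log2 processed signals minus the 75th percentile of the array's consistently detected probes, so that a level of 0 equals that percentile. A level is compared only with other levels of the same probe. A spot is called measured below where the scanner software flagged it as well above background. Of the 9 members, 7 had a probe measured on every array of at least 1 group and entered the fit across all genes. Wt1 and Prg4 were measured on all 24 arrays. Krt18 was measured on 23, Krt19 on 22, Msln on 21, Muc16 on 20 and Krt8 on 16. Krt8 passed only through month 1, so its place in the fit depended on the group in which it was highest. Upk3b was measured on 12 arrays and Upk1b on 9, and neither passed. The second Krt8 probe was measured on 7 arrays and the second Prg4 probe on 0 of 24, so both genes rest on 1 probe.

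The surface glycoproteins Msln and Muc16 were high in month 1 samples 2 to 4, spread widely in sham, and were near background in month 3. Those 3 month 1 arrays were all on slide 2, which had no sham, so their level against sham cannot be told apart from slide. On slide 1 Msln was -2.34 in the month 1 array and averaged -1.88 over 7 shams. On slide 3 it was -2.38 in the month 1 array and averaged -1.39 over 3 shams. Msln encodes mesothelin, a membrane-anchored glycoprotein of mesothelial cells, and Muc16 encodes the large membrane mucin that binds mesothelin. The Msln level was -2.34, -0.41, -0.35, 0.97 and -2.38 in month 1. It was -3.97, -4.81, -3.52, -1.19 and -4.02 in month 2. It was -6.68, -7.45, -5.53 and -4.05 in month 3, and -4.35, -1.35 and -0.03 in sham (lowest, median and highest of 10). The month 3 arrays other than the one at -4.05 lay below every sham and were not measured. A single month 2 array lay below every sham, and 1 month 1 array lay above every sham. For no member was the share of all genes lying as far outside the shams counted, so nothing is read from such counts. Near-coinciding arrays are counted separately in them. The Msln mean was -0.90 ± 1.44 in month 1, -3.50 ± 1.37 in month 2, -5.93 ± 1.48 in month 3 and -1.73 ± 1.70 in sham (SD, n = 5, 5, 4 and 10).

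Muc16 repeated this order at its own level. It was -3.71, -1.44, -1.07, -0.41 and -3.89 in month 1. It was -5.40, -5.91, -5.03, -1.41 and -5.57 in month 2. In month 3 it was -6.86, -5.88, -6.96 and -5.01, and in sham it was -6.24, -2.43 and -1.03 (lowest, median and highest of 10). The same month 2 array, sample 4, and the same month 1 arrays, samples 2 to 4, were high for both genes, and Muc16 was measured in 1 of 4 month 3 arrays. For Muc16, 2 of 4 month 3 arrays were below every sham, the lowest of which, Sham 2 at -6.24, was not measured either.

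Upk3b and Upk1b encode uroplakins, membrane proteins best known from the bladder surface, and Upk3b is also a marker of mesothelium. Upk3b was measured in 4 of 5 month 1 arrays, 1 of 5 month 2 arrays, 0 of 4 month 3 arrays and 7 of 10 shams. Its level was -7.02, -2.93, -2.73, -2.67 and -5.82 in month 1, and -8.39, -5.10 and -2.44 in sham (lowest, median and highest of 10). The measured month 2 array was again sample 4, at -3.76, and the other month 2 arrays read -9.35 to -7.00. The month 3 arrays read -8.57 to -6.27, all not well above background. Since no month 3 array measured Upk3b, only an approximate bound can be given: month 1 was at least about 3.38-fold higher than month 3 and sham at least about 1.76-fold higher than month 3. The bound sets the brighter mean against a limit for each dim array, averaged over those arrays. The limit is the lowest level of any measured probe on the array, or the dim probe's own value where that was higher. It is not a strict detection limit, since some probes above it were not measured. Krt18 on Sham 1, for one, read -5.55 and was not measured, where the lowest measured probe read -5.64.

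Upk1b was measured in 4 of 5 month 1 arrays, 0 of 5 month 2 arrays, 0 of 4 month 3 arrays and 5 of 10 shams. Its level was -7.08, -4.88, -4.71, -4.22 and -6.96 in month 1. The 5 shams that measured it were shams 3, 4, 7, 9 and 10, at -5.12, -5.12, -5.61, -5.65 and -4.83, and these were also the 5 shams with the highest Msln. By the same approximate bound, month 1 was at least about 1.93-fold higher than month 2 and at least about 1.34-fold higher than month 3 for Upk1b. Against sham no fold could be set for either later month, since the sham mean lay under that limit averaged over the arrays of the month.

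Krt8, the type II keratin of simple epithelia, went with these surface genes. The Krt8 level was -5.28, -4.69, -4.82, -2.96 and -5.30 in month 1. It was -5.70, -7.19, -6.65, -5.12 and -6.05 in month 2 and -5.79, -7.48, -6.63 and -5.73 in month 3. In sham it was -7.81, -5.16 and -4.66 (lowest, median and highest of 10). Krt8 was measured in 5 of 5 month 1 arrays, 3 of 5 month 2 arrays, 2 of 4 month 3 arrays and 6 of 10 shams. The groups overlapped throughout, and only the highest month 1 array was above every sham. Over the 10 pairs of Msln, Muc16, Upk3b, Upk1b and Krt8, Pearson r over the 24 arrays was 0.71 to 0.95. It was 0.75 to 0.97 over the 17 averaged samples, and 0.67 to 0.93 once each group's mean was removed. These arrays share scaling, and some nearly coincide, so r is a description.

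**Figure D1:**
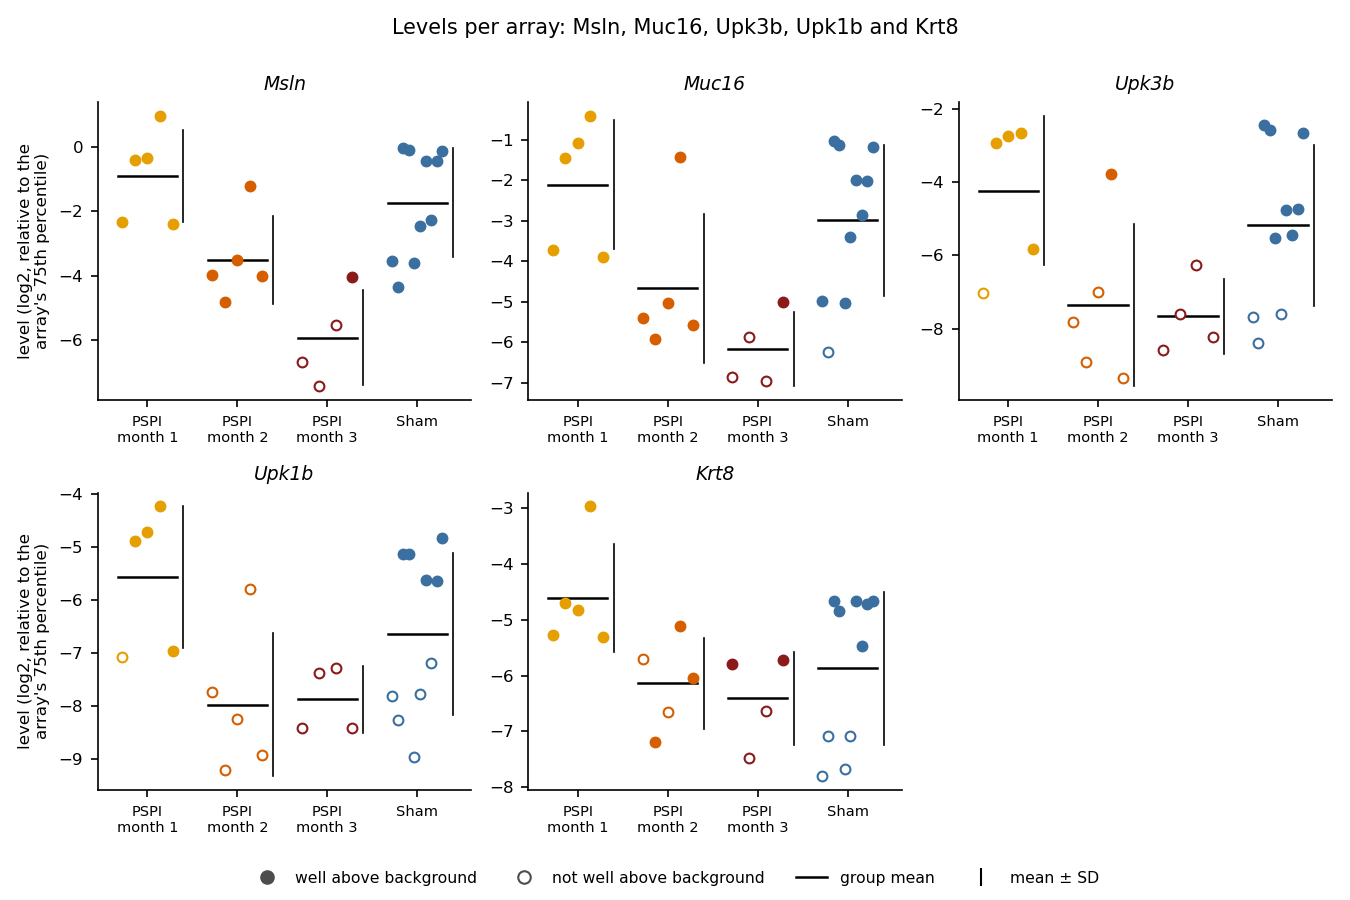
Level per array of Msln, Muc16, Upk3b, Upk1b and Krt8 (vertical axis, log2 relative to the array's 75th percentile) in PSPI months 1, 2 and 3 and in sham. Points are arrays, filled where well above background and open where not, horizontal lines are group means and vertical lines mean ± SD. Msln runs from 0.97 in a month 1 array to -7.45 in a month 3 array, and 3 of 4 month 3 arrays lie below every sham for that gene.

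A second set of members, Krt18, Prg4 and Wt1, did not follow the first. Both sets, with Krt19 apart, were drawn from these same levels. The r values within and between them therefore describe the split and do not test it. Krt18 is the type I keratin that pairs with Krt8. Its level was -0.19, -2.63, -2.68, -1.66 and -0.33 in month 1. It was -0.10, -1.06, -0.28, -1.04 and -0.25 in month 2, and 0.62, -1.54, -1.32 and 0.25 in month 3. In sham it was -5.86, -2.37 and -0.62 (lowest, median and highest of 10). Shams 1, 2 and 5 were the 3 lowest arrays for this gene, and 7 of 14 PSPI arrays were above every sham. The 9 arrays with the lowest Krt18, 6 shams and 3 month 1 arrays, were the same 9 arrays that had the lowest level of Myh7, the slow myosin heavy chain whose level rises in a loaded mouse ventricle. Prg4 shared 6 of its 9 lowest arrays with the lowest Myh7 arrays, and Msln 2 of 9. The part in these levels of whatever moves Myh7 was not tested.

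Prg4 encodes lubricin, the secreted mucin-like lubricant of joints and serous surfaces, and had more PSPI arrays above every sham than any other member, 11 of 14. How many of all genes had as many was not counted. The Prg4 level was -1.58, -3.28, -1.87, -3.72 and -1.31 in month 1. It was -0.41, -0.91, -1.19, -2.38 and -0.21 in month 2 and -1.30, -0.80, -0.90 and -1.40 in month 3. In sham it was -5.62, -3.07 and -2.05 (lowest, median and highest of 10). All 4 month 3 arrays, 4 of 5 month 2 arrays and 3 of 5 month 1 arrays were above every sham. The month 2 exception was sample 4, the month 2 array with the highest Msln and Muc16. The Prg4 mean was -2.35 ± 1.08 in month 1, -1.02 ± 0.85 in month 2, -1.10 ± 0.29 in month 3 and -3.41 ± 1.30 in sham (SD, n = 5, 5, 4 and 10).

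Wt1 encodes the zinc finger factor that marks the fetal and reactivated epicardium, and in the adult heart also some endothelial cells. It varied least of the members, over a 2.52-fold range. Wt1 averaged -1.71 ± 0.25 in month 1, -1.68 ± 0.26 in month 2, -1.22 ± 0.25 in month 3 and -1.60 ± 0.38 in sham (SD, n = 5, 5, 4 and 10). The 4 month 3 arrays stood at -1.42, -1.28, -1.32 and -0.85, and 1 of them was above every sham. Over the 3 pairs of Krt18, Prg4 and Wt1, r was 0.58 to 0.82 over 24 arrays and 0.53 to 0.82 over 17 samples. Over the 15 pairs that cross from this set to the first, it was -0.31 to 0.36 over 24 arrays and 0.026 to 0.60 once group means were removed.

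Krt19, a type I keratin of simple and ductal epithelia, stood between over all arrays and went with the first set within groups. The Krt19 level was -5.14, -3.14, -2.44, -2.13 and -5.0 in month 1. It was -3.57, -5.76, -5.84, -3.0 and -3.59 in month 2, and -3.41, -3.34, -3.35 and -3.21 in month 3. In sham it was -6.67, -4.45 and -3.05 (lowest, median and highest of 10). The month 3 arrays were closely alike, with an SD of 0.08 over 4 arrays, against 1.42 in month 1, 1.34 in month 2 and 1.40 in sham. The r of Krt19 with the 5 members of the first set was 0.32 to 0.71, and 0.77 to 0.88 once group means were removed. With the second set it was 0.38 to 0.40, and 0.30 to 0.36 once group means were removed.

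**Figure D2:**
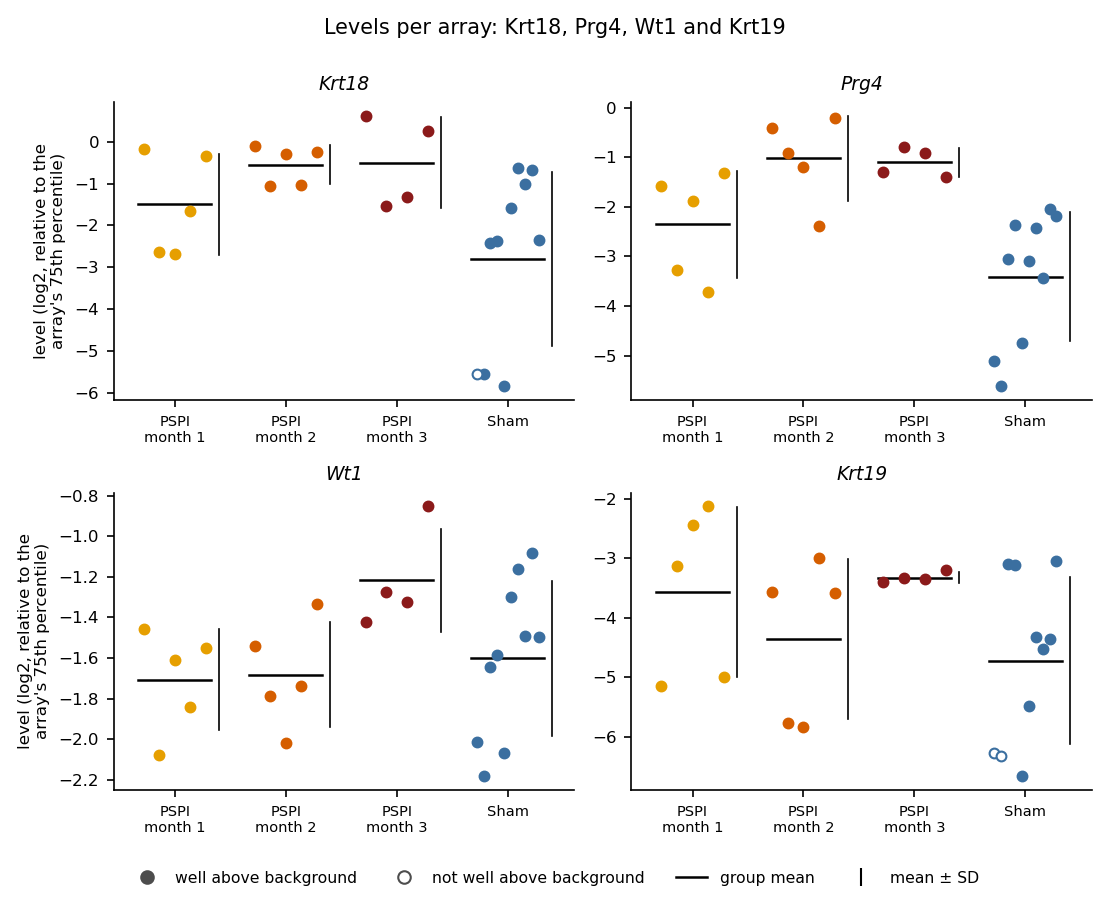
Level per array of Krt18, Prg4, Wt1 and Krt19 (vertical axis, log2 relative to the array's 75th percentile) in PSPI months 1, 2 and 3 and in sham. Points are arrays, filled where well above background and open where not, horizontal lines are group means and vertical lines mean ± SD. For Prg4 all 4 month 3 arrays, between -1.40 and -0.80, lie above the highest sham at -2.05.

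In the fit across all genes, a gene was called where its limma p, adjusted by Benjamini-Hochberg over all 12467 genes, was under 0.05. Because the members were chosen with such results known, the counts are set beside the share of all genes called and nothing is read from them. Over all 3 months against sham, 3 of 7 members were called, Prg4 and Krt18 higher and Msln lower, where 24.4% of all genes were called. In month 1 against sham 0 of 7 members were called, where 0.0% of all genes were called by limma and 1512 genes had an unadjusted p under 0.05. In month 2 against sham Prg4 was the 1 member called, higher, where 14.4% of all genes were called. In month 3 against sham 4 members were called, Msln and Muc16 lower and Krt18 and Prg4 higher, where 38.9% of all genes were called.

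The months were also set against each other. In month 2 against month 1, 0 of 7 members were called by limma and 0.016% of all genes were called, and in month 3 against month 2, 0 members were called where 18.7% of all genes were. In month 3 against month 1, Msln and Muc16 were called, both lower, where 28.5% of all genes were called. The median difference over the 7 members was 0.15 over all months, 1.06 in month 1, -0.08 in month 2 and 0.38 in month 3. Over all genes tested these medians were -0.013, 0.012, -0.019 and -0.038, and the members' median is taken over differences of both signs.

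The fitted log2 differences give the sizes. For Msln the difference from sham was 0.83 ± 0.80 in month 1, -1.77 ± 0.80 in month 2 and -4.20 ± 0.86 in month 3 (± standard error here and below). For Muc16 it was 0.88 ± 0.87 in month 1, -1.68 ± 0.87 in month 2 and -3.19 ± 0.94 in month 3. Between month 3 and month 1 the difference was -5.02 ± 0.98 for Msln and -4.07 ± 1.07 for Muc16. In month 3 both genes were not well above background on 3 of 4 arrays, so these sizes depend on how background is handled. With normexp background correction the month 3 difference from sham was -2.39 ± 0.70 for Msln, still called, and -1.50 ± 0.70 for Muc16, no longer called. With the authors' deposited table it was -2.28 for Msln, still called, and -1.41 for Muc16, no longer called. Against month 1 it was -3.08 for Msln, still called, and -2.08 for Muc16, no longer called, with normexp. Over all months the Msln difference was -1.08 with normexp and no longer called.

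For Prg4 the difference from sham was 1.06 ± 0.55 in month 1, 2.39 ± 0.55 in month 2 and 2.31 ± 0.60 in month 3, the last a 4.95-fold higher level than in sham. For Krt18 it was 1.30 ± 0.81 in month 1, 2.25 ± 0.81 in month 2 and 2.30 ± 0.87 in month 3. Krt8, its partner, differed from sham by 1.26 ± 0.58 in month 1, -0.27 ± 0.58 in month 2 and -0.54 ± 0.62 in month 3. The sign in month 3 depended on the handling of background. The month 3 difference of Krt8 was 0.22 with normexp and 0.28 with the deposited table, neither called. Krt19 differed by 1.15 ± 0.66 in month 1, 0.37 ± 0.66 in month 2 and 1.40 ± 0.71 in month 3. Wt1 differed by 0.38 ± 0.18 in month 3 and by less than its standard error in months 1 and 2. By group mean, Msln, Muc16, Upk3b, Upk1b and Krt8 were highest in month 1 and next in sham. On slides 1 and 3, which carried shams, the month 1 array lay below the sham mean for these genes other than Krt8, and above it for Krt8. None of the neighbours in the Msln order (month 1, sham, month 2, month 3) was called against the next.

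**Figure D3:**
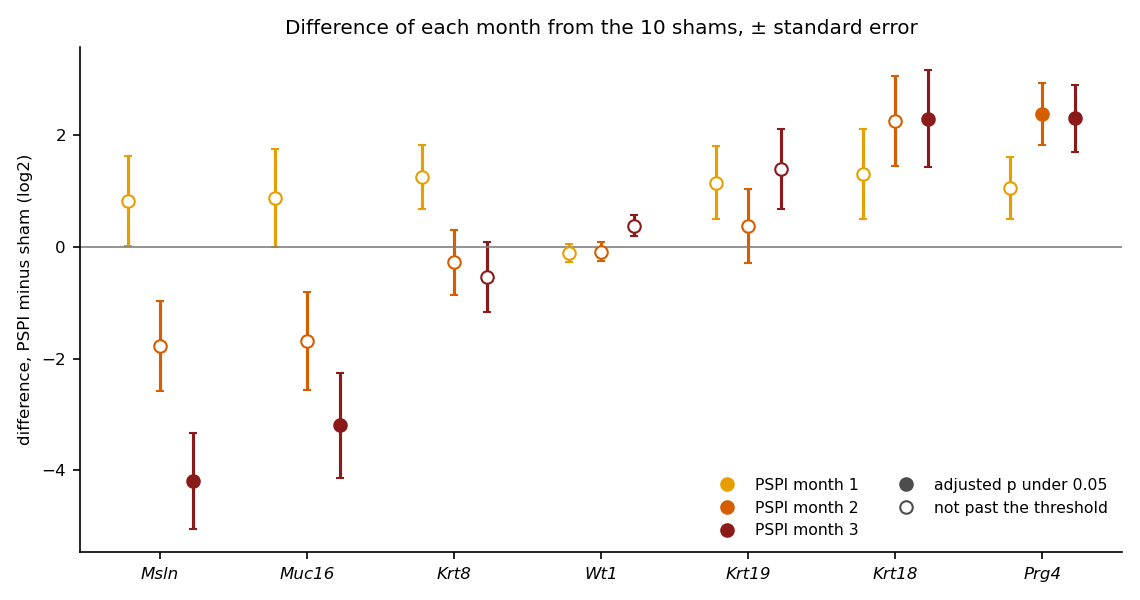
Fitted log2 difference of each PSPI month from the 10 shams (vertical axis) for the 7 members in the fit, with standard errors as bars. Filled points passed an adjusted p of 0.05 over all genes. Msln and Muc16 lie below 0 in months 2 and 3, to -4.20 and -3.19, while Krt18 and Prg4 lie above 0 in all 3 months.

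Some of these values rest on the arrays named at the start. Without shams 3, 4 and 10, a choice made after seeing the data, the Msln difference was -1.01 ± 0.63 over all months, against -1.71 ± 0.61 with them, and was no longer called. In month 3 it was -3.49 ± 0.85 for Msln and still called, and -2.39 ± 0.92 for Muc16 and not called. Krt19 moved the other way, to 1.68 ± 0.48 over all months, against 0.97 ± 0.50 with these shams, and was then called. Prg4 was 2.29 ± 0.46 over all months without them and was called either way. Krt18 was 2.13 ± 0.72 over all months and 2.48 ± 0.98 in month 3 without them, and neither was called. With near-coinciding arrays averaged, the month 3 difference was -3.55 ± 1.00 for Msln and 2.46 ± 0.69 for Prg4, both still called, and -2.66 ± 1.12 for Muc16 and 2.63 ± 1.01 for Krt18, no longer called. Over all months it was then -1.03 ± 0.72 for Msln and 1.94 ± 0.73 for Krt18, neither called. The Msln call over all months was lost when any 1 of 14 of the 24 arrays was left out (any of shams 3, 4, 7, 9 and 10, sample 1 or 5 of month 1, or any array but sample 4 of month 2 or of month 3), and the difference nearest to 0 was then -1.52, and the Krt18 call over all months was lost without Sham 2. The Krt18 call in month 3 was lost without Sham 1, 2 or 5, or without month 3 sample 1, 3 or 4, and its difference was 1.93 to 2.65 over the 24 arrays left out in turn. With slide as a fixed block Krt18 was 2.79 ± 1.09 in month 3 and 2.55 ± 0.93 over all months, neither called. Msln was then -2.59 ± 0.90 over all months and no longer called, and -4.87 ± 1.06 in month 3 and still called. Prg4 was 3.00 ± 0.78 in month 2 and still called.

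Slide 3 was the slide with all 4 groups. Msln on it averaged -5.67 over 3 month 3 arrays, -4.02 in the month 2 array, -2.38 in the month 1 array and -1.39 over 3 shams. Prg4 on it averaged -1.04 over the month 3 arrays, -0.21 in the month 2 array, -1.31 in the month 1 array and -2.99 over the shams. Krt18 averaged -0.87 over the month 3 arrays and -2.96 over the shams. The month 3 difference fitted on slide 3 alone was -4.28 ± 1.14 for Msln and 1.96 ± 0.69 for Prg4, and neither was called with 8 arrays.

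Other markers of the epicardial and mesothelial layer were looked at beside the members. Of a list of 32, 19 were in the fit. Over 24 arrays r was at least 0.7 with Msln for 7 of the 19, where 0.642% of all genes reached it, and with Krt18 for 6, where 4.93% did. No gene of the 19 was in both, and 6 were in neither. The first kind held Rspo1, a secreted enhancer of Wnt signalling, and Aldh1a2, the retinoic acid synthesising enzyme of the epicardium, and the second held the annexin Anxa8 and the matrix sulfatase Sulf1. Over all months against sham 1 of the 19 was called higher, Anxa8 (1.03 ± 0.37, adjusted p = 0.047), and 0 lower by limma, where 24.4% of all genes were called, with a list median of 0.30. In month 3 against sham 2 rose, Ildr2 (1.41 ± 0.36) and the carboxypeptidase-like Cpxm2 (1.07 ± 0.42, adjusted p = 0.049 by limma). In the same comparison 5 fell, where 38.9% of all genes were called, with a list median of 0.11. In month 3 against month 1, 1 of the 19 rose and 8 fell, where 28.5% of all genes were called, with a list median of -0.41 beside -0.042 over all genes. Lrrn4, among the 8, was measured on 12 arrays and was highest in month 1, so its place in the fit may depend on that group. Rspo1 fell by 2.44 on the log2 scale in month 3 against sham (adjusted p = 0.0046), and fell by 3.27 against month 1 (adjusted p = 0.0020). Aldh1a2 fell by 1.55 in month 3 against sham (adjusted p = 0.0049). Nkain4, a sodium pump interacting protein, fell by 2.59 in month 3 against sham (adjusted p = 0.012). Tcf21, a transcription factor of epicardial derived fibroblasts, fell by 0.58 in month 3 against sham (adjusted p = 0.026), and Gpm6a fell by 1.87 (adjusted p = 0.019). Ildr2, Aldh1a2, Tcf21 and Gpm6a were named after their values were seen. Rspo1 was measured on 22 arrays, Nkain4 on 21, Gpm6a on 19 and Ildr2 on 17. How far the sizes of these 4 genes depend on the handling of background was not tested. Rspo1 and Nkain4 had an r of 0.96 and 0.93 with Msln, so their fall is not separate from that of Msln.

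**Figure D4:**
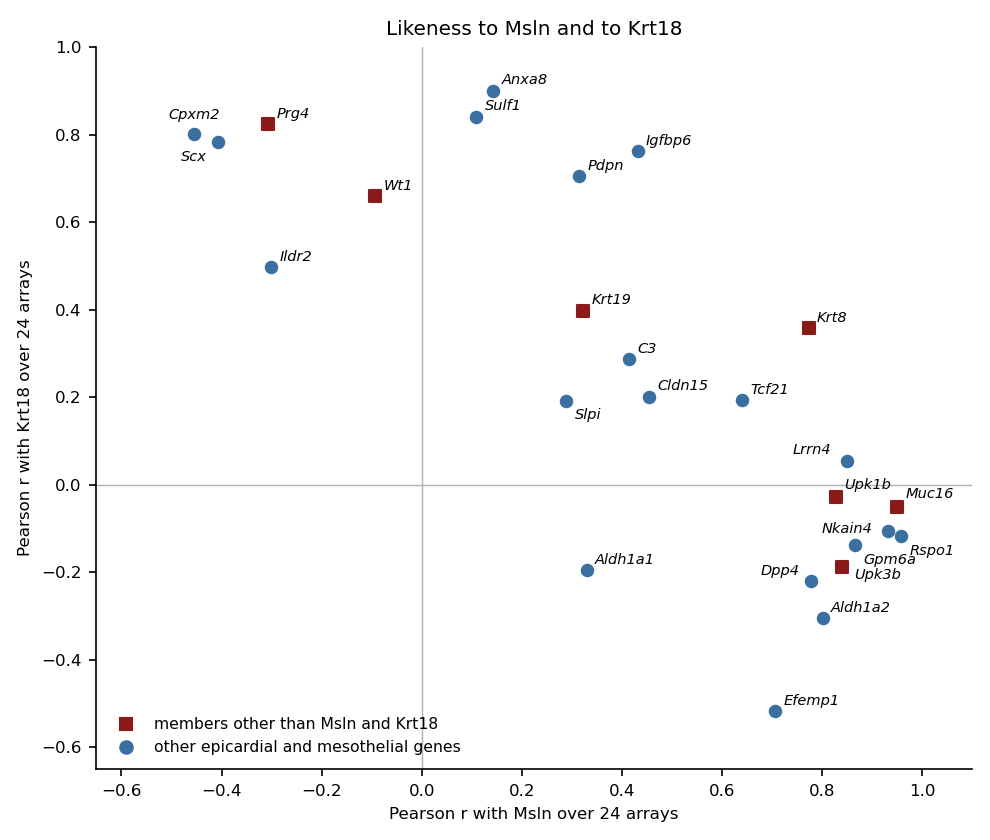
Pearson r with Msln (horizontal axis) and with Krt18 (vertical axis) over 24 arrays for the 7 other members (squares) and 19 further epicardial and mesothelial genes (circles). Of the 19 further genes, 7 reach 0.7 with Msln, 6 with Krt18, 0 with both and 6 with neither.

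The genes most like each member came from the whole table. Msln was followed most closely by Rspo1 (r = 0.96), the cytochrome P450 gene Cyp2s1 (0.94) and Nkain4 (0.93), and Muc16 by the same 3 genes, with Nkain4 first (0.97). Upk3b was nearest to the leucine-rich repeat gene Lrrn4 (0.90), as was Upk1b (0.97). Krt8 was nearest to the secreted keratinocyte protein gene Dmkn (0.93). Krt18 was nearest to the G protein subunit gene Gng13 (0.96), the BMP antagonist gene Nbl1 (0.95) and the matrix Gla protein gene Mgp (0.94). Prg4 was nearest to Lbp (0.89), whose product binds bacterial lipopolysaccharide, then Snx10 (0.88) and the complement gene C4b (0.87). Krt19 was nearest to the claudin gene Cldn15 (0.87), and Wt1 to the syntaxin gene Stx3 (0.83). Over the 17 averaged samples each of these r values was between 0.86 and 0.98.

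Genes of the lubricating surface and of fibroblasts were set beside Prg4 and Krt18. Of 6 tested genes of the lubricating and cartilage-like matrix, 2 rose over all months and 0 fell by limma, the proteoglycan Vcan (0.67 ± 0.22, adjusted p = 0.033) and Comp, a cartilage matrix protein (1.38 ± 0.51, adjusted p = 0.0498). Of 11 tested fibroblast genes 3 rose over all months and 0 fell by limma, and the 24.4% of all genes called is near both counts. Among the 3 were Cd248, a surface marker of stromal cells (0.59 ± 0.14, adjusted p = 0.0051), and Postn, a matricellular protein (1.21 ± 0.44, adjusted p = 0.049). In month 3 against sham 4 of the 11 fibroblast genes rose and 1 fell, with a list median of 0.20, where 38.9% of all genes were called. The summed fibroblast level was 49.0 to 75.4 in month 1, 58.3 to 74.7 in month 2, 53.8 to 77.4 in month 3 and 35.2 to 62.2 in sham. With Krt18, 5 of the 6 lubricating surface genes and 7 of the 11 fibroblast genes had an r of at least 0.7, and with Msln 0 of either list did. So did 4 of 5 genes of the loaded ventricle with Krt18, among them Myh7 (r = 0.82) and the natriuretic peptide gene Nppb (0.80). Of 11 tested genes of epicardial transition and retinoid handling, 1 rose and 1 fell in month 3 against sham, where 38.9% of all genes were called. Crabp2, a retinoic acid binding protein, rose (1.53 ± 0.25, adjusted p = 6.8e-05), and the cardiac factor Hand2 fell (-0.65 ± 0.19, adjusted p = 0.012).

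Markers of other tissue that could travel with a surface layer were set beside these results. In bulk tissue, fewer lining cells and less RNA per lining cell cannot be told apart. Of 14 markers of other epithelia 9 were never measured, and of 10 lung epithelium markers 6 were never measured. Of the atrial list 0 of 6 tested genes were called by limma over all months, where 24.4% of all genes were called, or in month 3 against sham, where 38.9% were. In month 3 against month 1, 3 of the 6 fell, where 28.5% of all genes were called. The Myl7 level, a defining atrial gene, was -3.84 in month 1 sample 4, the array with the highest Msln, and 0.35 and 0.42 in month 1 samples 1 and 5, where Msln was lower. On shams 3, 4 and 10, Myl7 was 3.52, 3.48 and 3.53 and Msln was at its 3 highest sham levels. Myl7 was named after its values were seen. Of 4 tested adipocyte genes, 2 fell in month 3 against sham, where 38.9% of all genes were called, Adipoq (-1.87 ± 0.72, adjusted p = 0.045) and Cfd (-2.52 ± 0.85, adjusted p = 0.023). Adipoq was measured on 17 arrays, and how far its size depends on the handling of background was not tested. The summed adipocyte level was 3.76 to 6.16 in month 1, 3.74 to 5.29 in month 2, 3.37 to 6.14 in month 3 and 3.29 to 7.74 in sham. Of 6 tested macrophage genes 3 rose over all months and 0 fell by limma, where 24.4% of all genes were called. The 3 were the complement genes C1qc (0.42 ± 0.09, adjusted p = 0.0023), C1qa (0.54 ± 0.11, adjusted p = 0.0024) and C1qb (0.39 ± 0.10, adjusted p = 0.0091). Of 5 tested endothelial genes 3 rose in month 3 against sham by limma, where 38.9% of all genes were called. Among them were Vwf (0.85 ± 0.25, adjusted p = 0.0095) and Kdr (0.54 ± 0.17, adjusted p = 0.017). The summed endothelial level was 5.76 to 6.90 in month 1, 5.75 to 6.62 in month 2, 8.84 to 9.90 in month 3 and 5.05 to 7.77 in sham, so the 4 month 3 arrays lay above every sham. The part of atrial, adipose, endothelial or macrophage content in the member levels was not tested.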

How the data were processed

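Total RNA of mouse right ventricle was labelled with Cy3 and hybridised to 24 1-colour Agilent arrays of 1 design, per the labels' protocols. The scanner files deposited by the authors hold intensity values per spot, background subtracted by Agilent Feature Extraction 10.7.3.1 per the file headers and not scaled between arrays. The authors' deposited table of the whole series, also in intensity values, equalled the net signal for 62976 of 62976 spots of each array and served as an alternative.

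Control spots and 143 to 290 outlier spots per array were left out, spots of 1 probe were averaged as log2, and each array was scaled by subtracting its 75th percentile, taken over the 16946 probes that all 24 arrays detected well above background. No spot was saturated. Of 55681 probes, 21040 were kept, each detected on the whole of at least 1 group. The kept probe with the strongest mean log2 signal stood for its gene, giving 12467 genes, named by accession or symbol through a RefSeq gene table. Groups came from the titles. The fit used lmFit and eBayes of limma 3.58.1 in R 4.3.3 with 4 group means, two-sided, with Benjamini-Hochberg adjustment over all genes and a threshold of 0.05, after a check on simulated data. Summed marker levels are sums of linear signals over each list's best probes.

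The members and the 15 gene lists were chosen with earlier results of these data known. Named genes are all members, the 3 genes most correlated with each, and up to 4 per list with the smallest p over all months. Genes outside this rule are marked in the text as named after their values were seen. Replicate numbers were not used to pair the samples in the main fit. Deviations of same-numbered arrays correlated above 0.1 in 9 of 27 pairs, with r from -0.45 to 0.52. They were not set against differently numbered pairs, so the check cannot exclude pairing. Alternatives covered scaling, background, filter, probe choice, slide, near-coinciding arrays (distance limit 0.45, set after seeing the data), the replicate number and each array left out.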

Additional observations from a re-analysis of the deposited data

Results flagged for a closer look

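In month 2, sample 4 lay far above the other 4 arrays for Muc16, at -1.41 against -5.03 for the nearest of them. The same array was also the highest of month 2 for Msln, Upk3b, Upk1b, Krt8 and Krt19, and the lowest for Prg4, and it coincided with no other array. In month 1, sample 4 lay far above the others for Krt8, at -2.96 against -4.69. It was the highest array of all 24 for Msln, Muc16, Upk1b, Krt8 and Krt19. These 2 were found among 36 groups looked at, and chance alone marks about 1 group in 20.

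Between the month 3 and month 1 PSPI arrays, the difference was -5.02 on the log2 scale for Msln and -4.07 for Muc16. Both were called by limma over all genes, where 28.5% of all genes were called. No sham is tied to a month, so a change in the effect of PSPI was not estimated. Msln and Muc16 were not well above background in 3 of 4 month 3 arrays. The sizes are therefore not exact: with normexp background correction they were -3.08 for Msln, still called, and -2.08 for Muc16, no longer called. No cause of these results was tested.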

How the results depend on the processing

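Of the 10 called member differences, 322 of 373 values under the alternatives kept direction and call, 51 kept direction but lost the call, and 0 reversed. Percentages in brackets here are the share of all genes called in the same setting and comparison. Slide 3 alone left 1 array in month 1 and in month 2, so no count is given for it. Members called over all months were 3 (24.4%), with 2 to 3 when 1 array was left out. With only probes measured on all arrays, where 2 members could be tested, 1 was called (25%). With slide as a fixed block 1 was called (16%), and with near-coinciding arrays averaged 1 (6.06%). In month 2 the members called were 1 (14.4%), and 0 with arrays averaged (0.0561%), with 1 to 2 when 1 array was left out (2 without Sham 7, 8 or 9). In month 3 they were 4 (38.9%), and 1 with probes measured on all arrays (38.7%) and 2 with arrays averaged (21.7%). Between months 3 and 1 they were 2 (28.5%), and 1 with normexp (18.1%) or the deposited table (17.9%), where Muc16 was lost. With probes measured on all arrays 0 were called (27.7%). Between months 3 and 2 the members called were 0 (18.7%), and 1 with quantile scaling (24.6%). The member median was -0.0013 in month 1 on slide 3, 1.15 in month 2 and 0.68 in month 2 against month 1 with probes measured on all arrays, and -1.80 in month 3 against month 1 without a filter, which adds Upk3b and Upk1b. Called genes of the 15 lists over all months were 17 of 84, and 8 without a filter, 0 on slide 3, 5 with arrays averaged and 10 to 21 with 1 array left out. They were 11 without Sham 1, month 1 sample 1, month 2 sample 1 or month 3 sample 4, and 10 without Sham 2 (19.7%) or Sham 5 (20.4%). The titles do not say whether equal replicate numbers mark paired samples. With the replicate number as a block, members called were 2 in month 2 (24.1%), 1 between months 2 and 1 (0.642%) and 1 between months 3 and 2 (17.4%). They were 4 between months 3 and 1 (28.6%), and 29 list genes were called over all months (26.7%). Signal near background limits Upk3b and Upk1b in every group, Krt8 outside month 1, and Msln and Muc16 in month 3. The cause of these changes was not tested, other than fewer arrays or probes where an alternative leaves them out.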
